A study of Mus musculus with 16 samples.

Results

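The genes described here encode 2-oxoglutarate dioxygenases, enzymes that succinate can inhibit, in a time course of immortalized mouse embryonic fibroblasts in which doxycycline switches on the excision of the succinate dehydrogenase gene Sdhc. The 42 members are a fixed list of HIF and collagen prolyl hydroxylases, lysyl hydroxylases, autosomal JmjC demethylases, TET and ALKBH enzymes and related oxygenases. The rule that names them uses no measured value, and all 42 were found among the 24485 gene identifiers of the expression files. The "exp" line carries R26M2rtTA/+, TetOcre and Sdhcfl/fl, and the "ctl" line carries R26M2rtTA/+, TetOcre and Sdhcfl/wt, so both lines hold the doxycycline-dependent activator and the Cre gene, and the control can lose its single floxed Sdhc allele as well. Both were treated with doxycycline at 1 µg/mL and sequenced as single libraries at day 0, day 5, day 9, day 12 and day 20 and as biological triplicates at day 16, which gave 8 libraries per line and 16 in all. Each genotype is represented by 1 cell line, so genotype and line cannot be told apart, and the spread between libraries of a line does not include the spread between lines.

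Levels are given as FPKM, reads scaled to transcript length and to the total of reads in genes, which allows levels of different genes to be set side by side. The libraries held between 18121520 and 42486438 reads in genes. Differences are on the log2(FPKM + 1) scale, which understates the change of genes with low FPKM, and a gene is said to have passed a test where the Benjamini-Hochberg adjusted p over all genes was under 0.05. Sdhc itself, the targeted gene, fell in exp from 87.8 FPKM at day 0 to 36.9, 32.8 and 26.5 in the day 16 replicates 1, 2 and 3. In ctl it went from 90.5 to 50.5, 50.1 and 47.5. The day 16 difference between the lines was -0.62 ± 0.12 (SE, 3 libraries per line, limma adjusted p = 0.0434), and Sdhc had 42.5 FPKM in exp at day 20. The exp slope of Sdhc was -1.26 per 20 days (adjusted p = 0.0242) and did not pass without day 16 replicates 2 and 3 (0.0513). The sources used here do not say which exons the excision removes, and the gene-level value counts reads over the whole gene. At day 16, replicates 2 and 3 stood apart from replicate 1 in both lines: across genes, their log2 values correlated with each other at r = 0.995 in exp and 0.997 in ctl, and with replicate 1 at 0.951 and 0.953 (exp) and at 0.979 and 0.981 (ctl). The summed FPKM of 9 fibroblast markers was 4601 to 5330 in exp and 4117 to 4407 in ctl, but single markers differed: Thy1 had only 0.588 to 9.57 FPKM in exp and 0.512 to 1.02 in ctl, and at day 16 Col1a2 (2.72), Thy1 (2.34) and Col3a1 (1.5) were higher and Pdgfra (-1.5) and S100a4 (-0.62) lower in exp. The endothelial markers Pecam1, Cdh5 and Kdr and 3 of 4 leukocyte markers (Ptprc, Adgre1 and Csf1r) stayed under 1 FPKM throughout. The fourth, Cd68, had 2.59 to 5.91 FPKM in exp and 4.65 to 6.32 in ctl and was lower in exp at day 16 (-0.66, adjusted p = 0.0336) and on average (-0.47, adjusted p = 0.00289). Markers of mesothelium or simple epithelium were also present, with values given below beside the genes they move with. In bulk RNA, fewer cells of a kind and less RNA per cell cannot be told apart.

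As background, 2-oxoglutarate dioxygenases use molecular oxygen, ferrous iron and 2-oxoglutarate to hydroxylate a protein, nucleic acid or lipid, and they release carbon dioxide and succinate. When succinate dehydrogenase is lost, succinate accumulates and competes with 2-oxoglutarate in the active site. The best known outcomes are stabilisation of the hypoxia-inducible factor HIF, whose subunits are normally marked for destruction by prolyl hydroxylation, and raised methylation of histones and DNA. Several of these enzymes are themselves encoded by genes that HIF induces, among them Egln1, Egln3, P4ha1, P4ha2, Plod1, Plod2, Kdm3a, Kdm4b and Kdm4c. The values below are transcript levels, and enzyme activity and succinate are not analysed here.

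The promoters of 5 members are printed because the results turn on these genes: Egln3, Egln1 and P4ha1 belong to the textbook list of HIF-induced genes, while P4ha3 and Phyh do not and were the members that passed the test at day 16. They were chosen with the expression values known. Each sequence is the 250 bases before the annotated start, 5′ to 3′ on the gene's own strand, from RefSeq on GRCm38.p6: Egln3 at chr12:54203875-54204124 (minus strand), Egln1 at chr8:124949255-124949504 (minus), P4ha1 at chr10:59323046-59323295 (plus), P4ha3 at chr7:100285270-100285519 (plus) and Phyh at chr2:4918746-4918995 (plus). Capitals mark every match to the core of the HIF response element, searched as ACGTG or GCGTG on both strands, so that the reverse complements CACGT and CACGC are marked too. The E-box CACGTG overlaps this core and occurs in none of the 5 sequences.
Egln3: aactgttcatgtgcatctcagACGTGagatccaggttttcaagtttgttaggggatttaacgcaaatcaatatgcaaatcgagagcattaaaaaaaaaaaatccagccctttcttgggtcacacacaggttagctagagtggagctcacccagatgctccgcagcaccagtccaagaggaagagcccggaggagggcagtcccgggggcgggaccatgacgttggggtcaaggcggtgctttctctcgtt
Egln1: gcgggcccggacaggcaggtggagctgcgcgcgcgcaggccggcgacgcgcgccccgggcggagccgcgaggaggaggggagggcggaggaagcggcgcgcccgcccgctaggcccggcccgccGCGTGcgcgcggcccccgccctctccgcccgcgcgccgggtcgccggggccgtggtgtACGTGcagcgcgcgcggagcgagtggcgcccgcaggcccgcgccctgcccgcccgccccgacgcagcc
P4ha1: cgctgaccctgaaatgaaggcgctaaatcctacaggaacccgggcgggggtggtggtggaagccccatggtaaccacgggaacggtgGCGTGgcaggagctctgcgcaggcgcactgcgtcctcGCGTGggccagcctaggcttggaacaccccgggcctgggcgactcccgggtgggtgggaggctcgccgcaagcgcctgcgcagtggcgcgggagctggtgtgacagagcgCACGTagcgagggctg
P4ha3: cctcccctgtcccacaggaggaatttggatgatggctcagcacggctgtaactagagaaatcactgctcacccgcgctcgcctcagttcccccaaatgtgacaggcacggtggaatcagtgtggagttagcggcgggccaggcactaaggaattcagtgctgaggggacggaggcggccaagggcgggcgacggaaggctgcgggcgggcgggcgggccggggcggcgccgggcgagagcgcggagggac
Phyh: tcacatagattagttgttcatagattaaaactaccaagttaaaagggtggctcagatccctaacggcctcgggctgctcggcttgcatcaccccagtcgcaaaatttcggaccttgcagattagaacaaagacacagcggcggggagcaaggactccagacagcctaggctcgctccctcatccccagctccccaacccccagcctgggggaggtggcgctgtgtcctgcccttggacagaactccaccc
Counting the last base before the start as -1, the match in Egln3 begins at -229, those in Egln1 at -126 and -68, and those in P4ha1 at -163, -126 and -16. P4ha3 and Phyh hold no match in these windows. The core is short and common: 12679 of 32851 such windows over all genes (38.6%) held at least 1 match. Among the members, 35 have an entry in the table, with 45 windows, and 25 of those windows (55.6%) and 21 of the 35 genes held a match. Of the 9 HIF-induced members, 7 have an entry, and all 7 held at least 1 match, while Plod2 and Kdm4b have no entry. This counts a gene if any of its windows held a match, whereas the 38.6% is a share of windows. Kdm3a and Kdm4c also have windows without a match, and the Kdm4c window with matches holds 2 E-boxes. A match describes the letters of the window and is not evidence of binding.

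Transcripts of nearly all members were present in both lines. Over the 16 libraries 41 of 42 had a mean of at least 1 FPKM and entered every test, 37 had at least 5 FPKM and 25 at least 10. Tet1, a methylcytosine dioxygenase best known from stem cells, was the exception, at 0.483 to 0.914 FPKM in exp and 0.399 to 0.722 in ctl, and was not tested. The lowest read count of any member in any library was 51, for P4htm, and 40 members had at least 100 reads in every library. The highest means over the 16 libraries belonged to Jmjd8 (60.0 FPKM), the collagen prolyl hydroxylase P4ha1 (53.1), the RNA demethylase Fto (46.3), the lysyl hydroxylase Plod3 (44.1) and the HIF prolyl hydroxylase Egln2 (42.4). The library kit does not record strand, and some members share exon bases with another gene on mm9 in the GENCODE vM1 annotation: Jmjd8 with Stub1 over 24.8% of its exon bases, Asph with Clvs1 over 14.3% and Plod3 with Znhit1 over 11.7%. Reads from these shared bases cannot be assigned to 1 gene, and for the other members with such an overlap the share was at most 4.3%.

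At day 16, the only day with replicates in both lines, the question is which of these genes differ between cells that can lose both Sdhc alleles and cells that can lose 1. Phyh and P4ha3 passed the test, both higher in exp, and no other member did. These are 2 of 41 tested members, against 6.1% of all 12533 genes tested (388 higher, 3.1%, and 377 lower, 3.01%). With voom on recovered reads 4 passed (Kdm3a and Kdm7a added), and without exp replicate 1 there were 5 (Kdm3a, Alkbh6 and Plod2 added, all lower in exp). The 6.1% is from the test on all 6 libraries. The share over all genes under these alternatives is not given here, so these counts cannot be set against it. In the test on all 6 libraries a further 10 members had an unadjusted p under 0.05 only, and the median difference was -0.06 over the members and -0.01 over all genes. Values of the lines did not overlap in 15 of 41 members (5 with exp higher, 10 with exp lower), against 32% of all genes.

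Phyh encodes phytanoyl-CoA hydroxylase, the peroxisomal enzyme that begins the breakdown of the branched fatty acid phytanic acid, and lies at chr2:4840065-4859776 (mm9, plus strand). At day 16 its level was 6.32, 6.99 and 6.59 FPKM in exp and 3.03, 3.70 and 3.51 in ctl. The 3 exp libraries were all above the 3 ctl libraries, with means of 6.63 ± 0.34 and 3.42 ± 0.35 (SD, n = 3 each). The difference was 0.79 ± 0.09 (SE; limma adjusted p = 0.0072). Before that, exp had 7.11, 9.62, 10.6 and 8.86 FPKM at days 0, 5, 9 and 12 and 7.03 at day 20, and ctl had 3.64, 3.92, 3.74, 3.87 and 3.85. The lines therefore already differed at day 0, by 0.81 on the log2 scale with 1 library per line. All 8 exp libraries were above all 8 ctl libraries. Averaged over days, the line difference was 0.92 ± 0.07 (limma adjusted p = 1.84e-06), and the change of the difference over 20 days was -0.26 (95% interval -0.75 to 0.22).

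P4ha3, a catalytic subunit of the collagen prolyl 4-hydroxylase, lies at chr7:107434030-107468209 (mm9, plus strand). Its day 16 values were 7.32, 8.11 and 7.12 FPKM in exp and 4.57, 4.96 and 5.26 in ctl, with no overlap. The difference was 0.52 ± 0.08 (limma adjusted p = 0.0236), and it no longer passed without replicate 2 or 3 of either line (adjusted p up to 0.108). In contrast to Phyh, the lines lay close together at day 0, at 5.19 and 4.63 FPKM, a difference of 0.14. From day 5 to day 20 the exp values ran from 6.78 to 9.46 FPKM, and the ctl values from 4.45 to 5.64. The change of the difference over 20 days was 0.48 ± 0.19, with an unadjusted p of 0.0281 and a limma adjusted p of 0.384, and did not pass the test. Its average over days was 0.50 ± 0.07 (adjusted p = 0.000267).

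**Figure D1:**
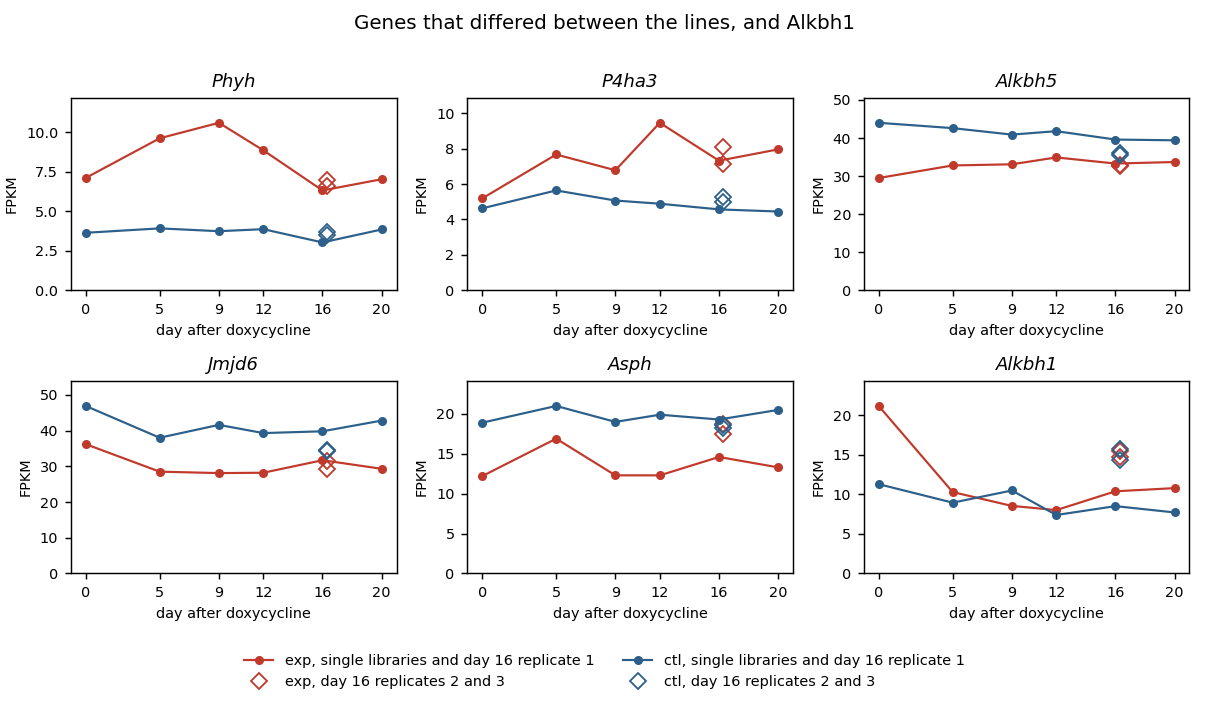
FPKM of Phyh, P4ha3, Alkbh5, Jmjd6, Asph and Alkbh1 by day, with 1 panel per gene, red for exp and blue for ctl; filled points joined by lines are the single libraries with day 16 replicate 1, and open diamonds are day 16 replicates 2 and 3. Phyh in exp (6.32 to 10.6 FPKM) stays above ctl (3.03 to 3.92) on every day including day 0, whereas Alkbh1 stands out at exp day 0 (21.2 FPKM) and in day 16 replicates 2 and 3 of both lines (14.3 to 15.8).

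The other collagen prolyl 4-hydroxylase genes behaved differently. P4ha1 encodes the main catalytic subunit in fibroblasts and lies at chr10:58786044-58836052 (mm9, plus strand). In exp it was at 52.7, 79.0, 69.1 and 65.0 FPKM at days 0, 5, 9 and 12, at 70.3 in day 16 replicate 1 and at 73.6 at day 20. The corresponding ctl values were 50.0, 49.2, 43.9, 47.4, 44.7 and 46.6. Day 16 replicates 2 and 3 reversed this order, with 36.6 and 37.1 FPKM in exp and 42.2 and 42.1 in ctl. Across the triplicates the day 16 difference was therefore 0.09 ± 0.25 (adjusted p = 0.879). P4ha2, another catalytic subunit, ran from 30.1 to 35.8 FPKM in exp (median 32.9) and from 31.7 to 35.9 in ctl (median 34.0), and its average difference was -0.03 with a 95% interval of -0.14 to 0.08. P4htm, a transmembrane prolyl hydroxylase of the endoplasmic reticulum, was low in both lines, at 1.28 to 2.59 FPKM in exp and 1.14 to 1.92 in ctl.

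Among the lysyl hydroxylases, which modify collagen lysines before cross-linking, Plod2 showed the same order of libraries as P4ha1. Plod2 lies at chr9:92437061-92503266 (mm9, plus strand) and is named here for its pattern, with its values known. Its exp values were 30.1, 39.3, 27.9 and 29.8 FPKM at days 0, 5, 9 and 12, 31.8 in day 16 replicate 1 and 31.9 at day 20, and 12.8 and 12.6 in day 16 replicates 2 and 3. All 8 ctl values lay between 18.8 and 21.8 FPKM. The exp line was thus above every ctl library in 6 of its libraries and below every ctl library in the other 2, and the day 16 difference over the triplicates was -0.13 ± 0.34 (adjusted p = 0.870). Without exp replicate 1 it was -0.55 (limma adjusted p = 0.00377), and the replicate 1 pair alone gave 0.73. Plod1 ranged from 23.0 to 46.2 FPKM in exp and from 25.3 to 32.8 in ctl.

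Plod3, a lysyl hydroxylase that can also attach sugars to collagen (chr5:137462889-137472518, mm9, plus strand), was steadier. At day 16 it was at 47.7, 48.0 and 49.1 FPKM in exp and 43.9, 38.8 and 42.3 in ctl. The exp libraries were all higher, yet the difference of 0.21 ± 0.07 did not pass (adjusted p = 0.128). In exp it went from 34.5 and 39.1 FPKM at days 0 and 5 to 51.4 and 49.6 at days 9 and 12 and 48.0 at day 20, while ctl stayed between 38.8 and 44.2.

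The 4 HIF hydroxylases set the stability and activity of HIF. Egln3 encodes a prolyl hydroxylase that is itself strongly induced by HIF and lies at chr12:55279968-55304847 (mm9, minus strand). It was at 5.85, 5.13, 4.47 and 4.68 FPKM in exp at days 0, 5, 9 and 12, at 5.57 in day 16 replicate 1 and at 5.51 at day 20, against 4.18, 3.49, 2.81, 3.93, 3.44 and 3.67 in ctl. Day 16 replicates 2 and 3 had 2.59 and 2.31 FPKM in exp and 4.45 and 3.67 in ctl, so that here too the order was the opposite. The triplicate difference was -0.18 ± 0.27 (adjusted p = 0.762).

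Egln1, the main oxygen sensor among the prolyl hydroxylases (chr8:127432496-127473154, mm9, minus strand), was highest in exp at days 0 and 5, at 33.8 and 33.4 FPKM. It stood at 27.7, 26.1 and 24.2 FPKM in the exp day 16 libraries and at 26.7, 26.1 and 25.5 in those of ctl, a difference of -0.01 (95% interval -0.17 to 0.15). Egln2, the most abundant of the 4, had a lowest, median and highest value of 31.7, 41.5 and 50.4 FPKM in exp and 40.4, 42.5 and 45.7 in ctl. Hif1an, which encodes the asparaginyl hydroxylase that blocks HIF from its coactivators, had 15.4, 16.2 and 17.3 FPKM in exp and 16.4, 18 and 18.8 in ctl as its lowest, median and highest values. Hif1an was lower in exp on all 6 days in the libraries without day 16 replicates 2 and 3. Its average difference was -0.11 ± 0.04 (adjusted p = 0.0354).

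**Figure D2:**
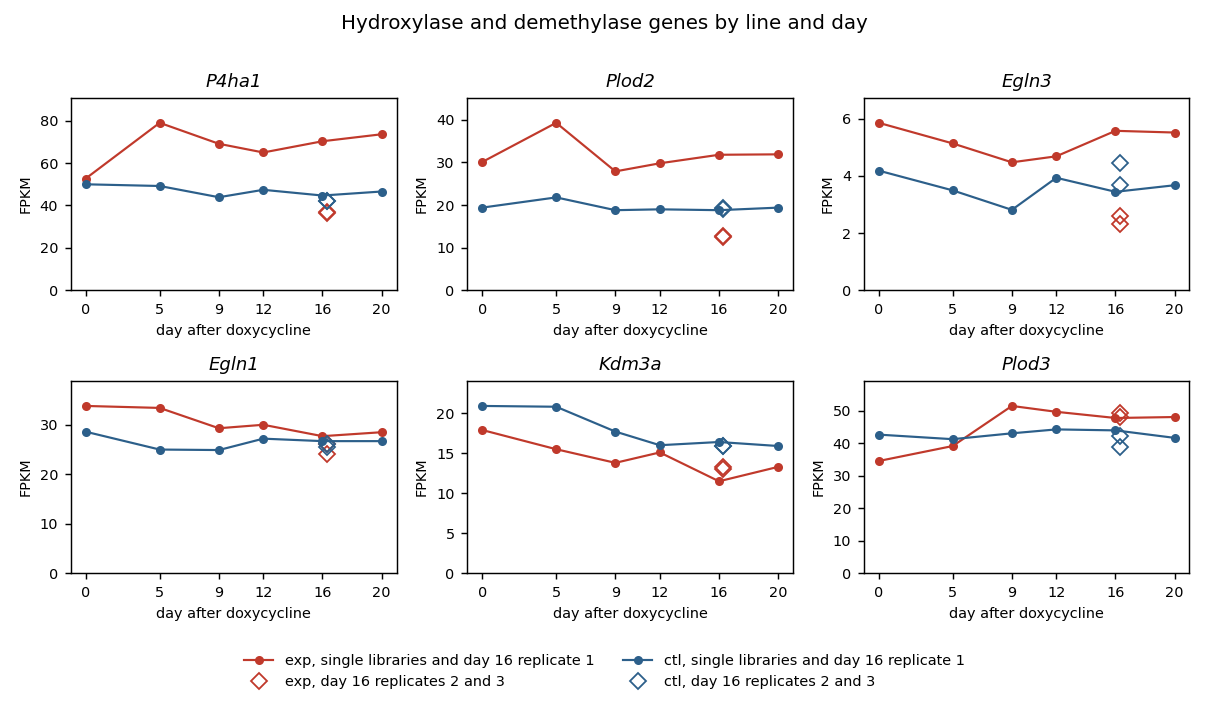
FPKM of P4ha1, Plod2, Egln3, Egln1, Kdm3a and Plod3 by day, with 1 panel per gene, red for exp and blue for ctl; filled points joined by lines are the single libraries with day 16 replicate 1, and open diamonds are day 16 replicates 2 and 3. For P4ha1, Plod2 and Egln3 the joined exp points lie above the ctl points, but the exp diamonds lie below the ctl diamonds (Plod2 12.8 and 12.6 FPKM against 19.0 and 19.4).

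The day 16 libraries of exp thus fell apart for these 3 genes. Measured as replicates 2 and 3 minus replicate 1, the difference in exp was -1.26 for Plod2, -0.93 for Egln3 and -0.91 for P4ha1, and in ctl it was 0.03, 0.18 and -0.08. A shift of at least 0.5, a size chosen with the values known, was seen in 4 of 41 members in exp (against 15.4% of all genes) and in 2 of 41 in ctl (9.39%). The fourth in exp was Alkbh1, which moved the other way, by 0.51, and in ctl the shifted genes were Alkbh1 (0.75) and Alkbh3 (0.69). The summed level of the 8 mesothelial or simple epithelial markers moved with this split: it was 839 FPKM in exp day 16 replicate 1 and 744 at exp day 20, but 70.7 and 80.1 in exp replicates 2 and 3, and it ranged from 98.9 to 128 over the ctl libraries. Upk3b, a urothelial and mesothelial surface protein gene, was at 455 FPKM in exp replicate 1. It had 22.9 and 28.0 FPKM in exp replicates 2 and 3 and was under 1 FPKM in every ctl library. The epithelial gene Epcam was under 1 FPKM everywhere. Of the 7 markers tested, 5 were higher in exp on average over days (19.2% of all genes were): Upk3b, Upk1b, Krt8, Krt18 and Krt19. The mesothelial marker Msln went the other way, at -1.02 (limma adjusted p = 0.0606). With the replicate number as a block, Msln passed as lower in exp (0.0431). The summed level of the 4 smooth muscle markers was 474 FPKM in exp replicate 1 and 674 and 621 in replicates 2 and 3. Over all days it ranged from 188 to 674 FPKM in exp and from 172 to 368 in ctl, with Myh11 under 1 FPKM in every library. Acta2 was higher in exp at day 16 (1.34, limma adjusted p = 0.0432) and on average (1.02, adjusted p = 0.000442). Cnn1 was higher on average (1.17, adjusted p = 0.00289), and Tagln did not pass in either fit. With the replicate number as a block, Tagln passed as higher in exp at day 16 (0.50, limma adjusted p = 0.0365). The part of these cells or markers in the levels of Plod2, P4ha1 and Egln3 was not tested.

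**Figure D3:**
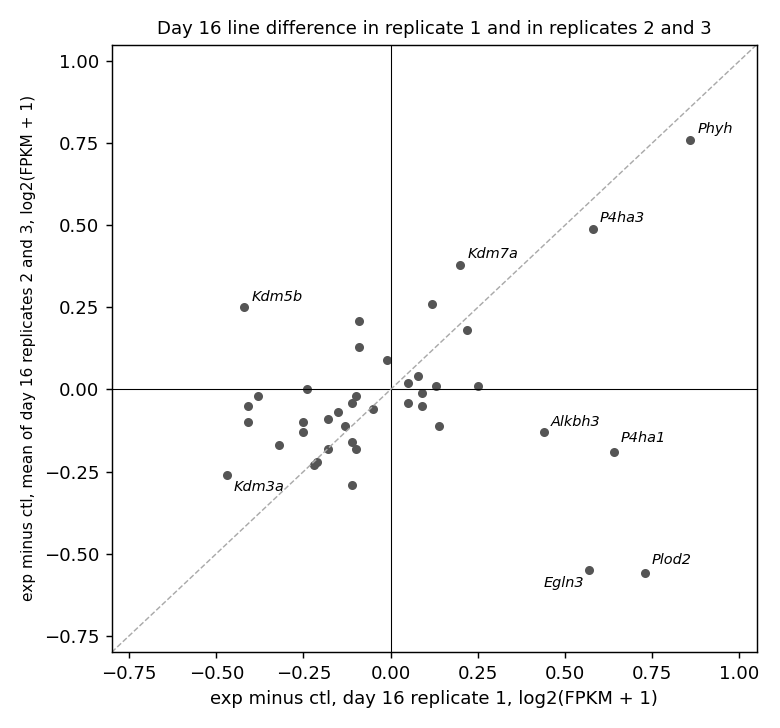
Exp minus ctl at day 16 on the log2(FPKM + 1) scale for the 41 tested members, in replicate 1 (horizontal) and as the mean of replicates 2 and 3 (vertical); each point is a gene, and the dashed line marks equal differences. Phyh (0.86 and 0.76) and P4ha3 (0.58 and 0.49) lie near the line, whereas Plod2 (0.73 and -0.56), Egln3 (0.57 and -0.55) and P4ha1 (0.64 and -0.19) lie on opposite sides of zero.

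A second question is what separates the lines over the whole course, day 0 included. With day as a factor shared by the lines, 13 of 41 members differed on average, against 35.9% of all 12559 genes tested, so the share was not larger among the members. Of these, 3 were higher in exp (19.2% of all genes were), namely Phyh, P4ha3 and Ogfod1, and 10 were lower (16.7% of all genes were). The 10 were 5 of 13 JmjC histone demethylase genes (Kdm2a, Kdm3a, Kdm3b, Jmjd1c and Kdm6b), Jmjd6 and Jmjd4, Asph, Hif1an and Alkbh5. Phyh, P4ha3, Jmjd6, Kdm3a, Alkbh5, Kdm2a, Asph and Jmjd4 passed under each of the 22 alternatives run. The other 5 calls did not hold under some of them. Ogfod1 (adjusted p up to 0.17) and Jmjd1c (0.238) were lost without day 16, and Ogfod1 also with quantile normalization. Hif1an (0.201) was lost without exp replicate 2 or 3, ctl replicate 1 or any day but day 0. Kdm6b (0.113) was lost without any exp replicate, ctl replicate 1 or any day but day 9, and also without a filter on low values. Kdm3b (0.272) was lost without any exp replicate, ctl replicate 2 or 3 or day 0, 5, 9 or 16. It was also lost in limma without the trend and robust options.

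The range of values separated the lines completely in few members. Over all days, 3 of 41 did not overlap (Phyh and Ogfod1 higher in exp, Alkbh5 lower), against 10.2% of all genes. Without day 16 replicates 2 and 3, 11 of 41 did not overlap, against 21% of all genes: Egln3, Phyh, P4ha1, Plod2, Ogfod1 and Alkbh3 were higher in exp, and Jmjd6, Kdm2a, Alkbh5, Hif1an and Asph were lower. In the average difference tested without these replicates the count was 15 of 41 (36.7% of all genes): Plod2, P4ha1, Egln3, Egln1, Alkbh3 and Kdm5b came in, and Ogfod1, Jmjd1c, Hif1an and Kdm3b dropped out. The added differences were 0.67 for Plod2 (limma adjusted p = 3.1e-05), 0.52 for P4ha1 (adjusted p = 0.00205), 0.44 for Egln3 (0.00136), 0.47 for Alkbh3 (0.00211), 0.19 for Egln1 (0.0343) and -0.22 for Kdm5b (0.0387). With all 16 libraries the differences were 0.36 for Plod2 (0.162), 0.34 for P4ha1 (0.0715) and 0.19 for Egln3 (0.349). With the replicate number as a block, P4ha1 (adjusted p = 0.0433) and Alkbh3 (0.0337) also passed and Kdm3b no longer did.

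The JmjC histone demethylases remove methyl groups from histone lysines. In limma 5 of the 13 genes were lower in exp on average and none higher. Over all genes 16.7% were lower and 35.9% differed in either direction. With voom on recovered reads Kdm7a was also called higher (0.31, adjusted p = 0.0218). The median average difference was -0.13 over the 13 genes and 0.01 over all genes. Kdm3a, a demethylase of repressive histone marks and a known HIF target, lies at chr6:71538968-71582899 (mm9, minus strand). At day 16 it was at 11.5, 13 and 13.3 FPKM in exp and at 16.4, 15.9 and 15.9 in ctl. The lines did not overlap on that day, but the difference of -0.33 ± 0.07 stopped just short of the threshold (limma adjusted p = 0.0522). Its average difference was -0.28 ± 0.05 (adjusted p = 0.00066). Kdm2a, which acts at CpG islands, showed a lowest, median and highest value of 29.0, 30.9 and 35.3 FPKM in exp and 32.4, 38.7 and 42.7 in ctl, and an average difference of -0.26 ± 0.05 (adjusted p = 0.00155).

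The remaining 3 that passed had smaller differences, and their calls did not hold under some of the alternatives, as given above. Jmjd1c, a relative of Kdm3a, had 9.88, 10.4 and 13.3 FPKM in exp and 11.4, 12.3 and 14.2 in ctl as its lowest, median and highest values, with an average difference of -0.16 ± 0.05 (adjusted p = 0.0205). Kdm6b, which removes methyl groups from a Polycomb mark, had 9.71, 10.0 and 14.4 FPKM in exp and 10.2, 13.4 and 15.0 in ctl (-0.20 ± 0.07, adjusted p = 0.0429). Kdm3b had 15.6, 16.6 and 18.6 FPKM in exp and 17.2, 18.5 and 19.9 in ctl (-0.13 ± 0.05, adjusted p = 0.0438). Ranges of the lines overlapped in all 3 of these genes over the course.

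The most abundant gene of this group, Kdm4a, had 29.7, 33.8 and 39.4 FPKM in exp and 34.5, 37.4 and 37.6 in ctl, and its difference of -0.11 did not pass (adjusted p = 0.108). Kdm7a, the only one of the 13 with all day 16 values higher in exp, was low in both lines, at 1.75, 1.96 and 2.22 FPKM in exp and 1.40, 1.43 and 1.32 in ctl, a difference of 0.32 ± 0.11 (adjusted p = 0.151). The other 6 genes, Kdm2b, Kdm4b, Kdm4c, Kdm5a, Kdm5b and Phf2, had average differences from -0.14 to 0.00 and none passed with all libraries.

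Jmjd6, a lysyl hydroxylase of splicing factors (chr11:116698746-116704763, mm9, minus strand), was lower in exp on all 6 days. Its lowest, median and highest values were 28.1, 29.3 and 36.2 FPKM in exp and 34.4, 39.5 and 46.9 in ctl. The day 0 library of exp, at 36.2, was the only one to reach into the ctl range. Its average difference was -0.37 ± 0.06 (adjusted p = 0.000314). Jmjd4, a lysyl hydroxylase of a translation termination factor, had 5.09, 5.93 and 6.87 FPKM in exp and 6.74, 7.14 and 7.43 in ctl (-0.25 ± 0.05, adjusted p = 0.00238). Jmjd8, an endoplasmic reticulum protein and the most abundant member, had 51.7, 61.5 and 84.7 FPKM in exp and 51.0, 57.3 and 60.1 in ctl, and its difference of 0.15 did not pass (adjusted p = 0.104).

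Asph, which hydroxylates EGF-like domains in the endoplasmic reticulum, and Ogfod1, a prolyl hydroxylase of a ribosomal protein, differed between the lines in opposite directions. Asph (chr4:9375216-9596491, mm9, minus strand) was at 12.2, 16.9, 12.3 and 12.3 FPKM in exp at days 0, 5, 9 and 12, at 14.6, 17.5 and 18.7 in day 16 replicates 1, 2 and 3 and at 13.3 at day 20, and ctl lay between 18.2 and 21.0 throughout. Only exp day 16 replicate 3 reached the ctl range. The average difference was -0.39 ± 0.08 (adjusted p = 0.00234) and the day 16 difference -0.14 ± 0.10 (adjusted p = 0.449). Ogfod1 was at 8.89 to 11 FPKM in exp (median 9.80) and 8.05 to 8.80 in ctl (median 8.71), so that every exp library was above every ctl library, although by a small amount: the average difference was 0.16 ± 0.04 (adjusted p = 0.012).

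Of the ALKBH and FTO genes, only Alkbh5 passed. It removes N-methyl groups from adenosine in mRNA and lies at chr11:60349883-60372014 (mm9, plus strand). At days 0, 5, 9 and 12 exp had 29.5, 32.8, 33.1 and 34.9 FPKM against 44.0, 42.6, 40.9 and 41.8 in ctl, and at day 20 it had 33.7 against 39.4. The day 16 replicates 1, 2 and 3 had 33.3, 32.6 and 32.8 FPKM in exp, against 39.6, 35.6 and 36.1 in ctl. All exp libraries were below all ctl libraries, and the average difference was -0.28 ± 0.05 (adjusted p = 0.00133). The gap was widest at day 0, at -0.56, and its change over 20 days was 0.37 ± 0.12, which did not pass the test (unadjusted p = 0.0101, limma adjusted p = 0.283).

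Fto, the other mRNA demethylase and the most abundant of this group, had 36.9, 50.2 and 55.5 FPKM in exp and 41.3, 45.2 and 48.3 in ctl, with an average difference of 0.08 (95% interval -0.06 to 0.22). Alkbh6, with the largest day 16 difference of the group, was at 9.01, 7.35 and 7.31 FPKM in exp and 9.82, 8.82 and 9.54 in ctl, a difference of -0.23 ± 0.10 (adjusted p = 0.231). Alkbh1 and Alkbh3, named with their values known, varied widely between libraries of 1 line. At day 0 Alkbh1 had 21.2 FPKM in exp against 11.3 for ctl. From day 5 on it stayed at 7.40 to 10.8 in both lines outside day 16 replicates 2 and 3, which had 14.8 and 15.5 (exp) and 15.8 and 14.3 (ctl). Alkbh3, which repairs alkylated DNA, was higher in exp on all 6 days, with 14.7 FPKM against 7.81 at day 0, but day 16 replicates 2 and 3 gave 9.99 and 10.9 for exp against 11.8 and 11.4 for ctl. The other 4 tested, Alkbh2, Alkbh4, Alkbh7 and Alkbh8, had average differences from -0.05 to 0.15.

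The TET enzymes oxidise methylcytosine in DNA. Tet3, the most abundant, had a lowest, median and highest value of 11.1, 12.3 and 13.6 FPKM in exp and 10.8, 11.6 and 13.8 in ctl. Tet2 had 3.54, 4.71 and 7.26 FPKM in exp and 3.47, 4.44 and 5.75 in ctl. Neither passed a test between the lines, with average differences of 0.06 (95% interval -0.06 to 0.18) and 0.11 (-0.07 to 0.29).

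**Figure D4:**
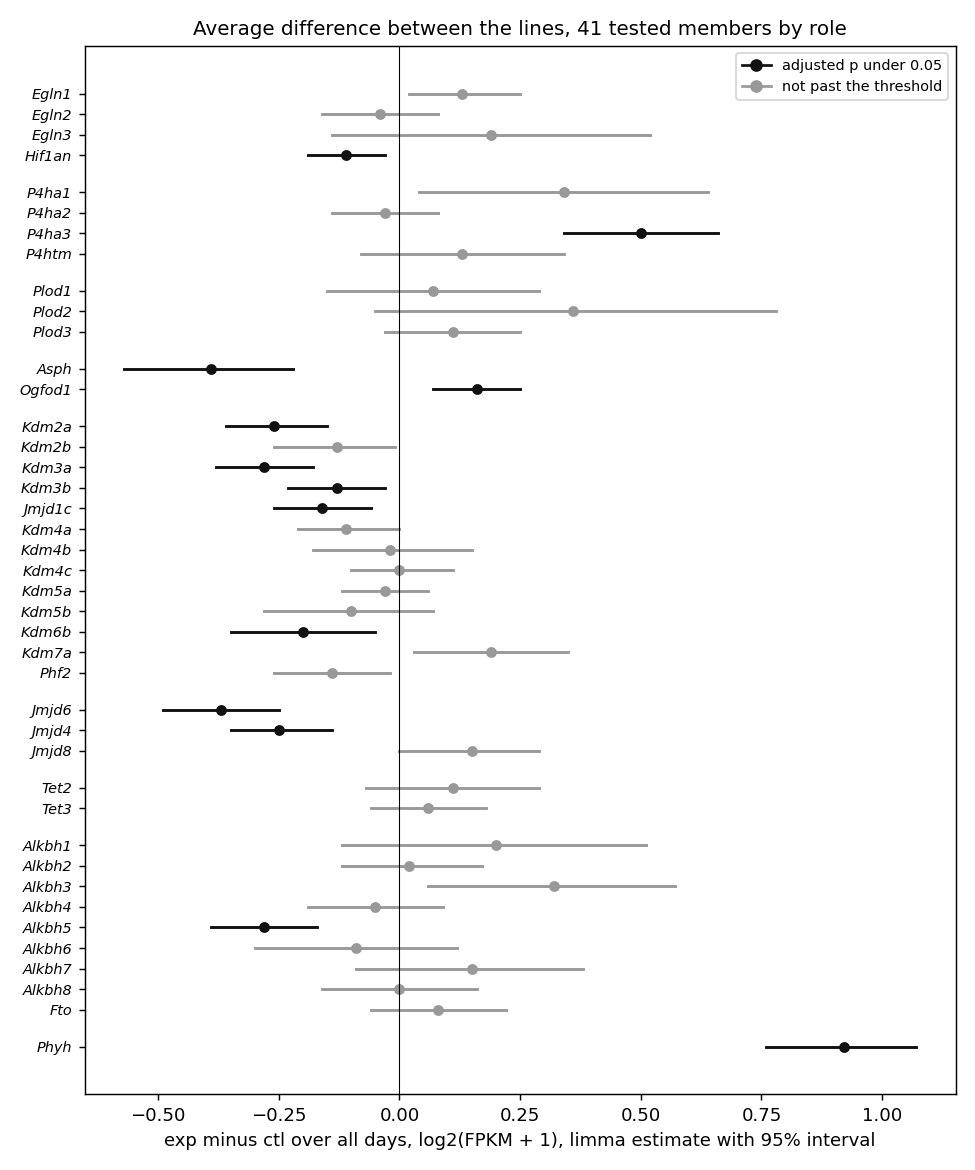
Average difference between the lines for the 41 tested members, as exp minus ctl on the log2(FPKM + 1) scale from the fit over all 16 libraries, grouped by role; points are limma estimates and bars 95% intervals, black where the adjusted p is under 0.05. The 13 black points run from -0.39 for Asph to 0.92 for Phyh, and P4ha1 (0.34), Plod2 (0.36) and Egln3 (0.19) have wide intervals.

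Day 0, with Sdhc at 87.8 FPKM in exp and 90.5 in ctl, had 1 library per line and was not tested. At a size of 0.5 on the log2 scale, chosen with the values known, 7 of 41 members differed, against 24.8% of all genes: Plod2 (0.61), Alkbh1 (0.85), Alkbh3 (0.83), Alkbh7 (0.58) and Phyh (0.81) were higher in exp, and Asph (-0.60) and Alkbh5 (-0.56) were lower. For Phyh, Asph and Alkbh5 the average difference thus includes one that was already there at day 0. Below that size, Kdm2a (-0.39), Jmjd6 (-0.36), Kdm3a (-0.21) and Kdm3b (-0.18) were lower in exp at day 0, against averages of -0.26, -0.37, -0.28 and -0.13. Other members with an average that passed lay closer at day 0: Kdm6b (-0.15), Hif1an (-0.07), Jmjd4 (-0.07), Jmjd1c (0.00) and Ogfod1 (0.03). For P4ha3, the day 0 difference of 0.14 was smaller than that of every later day.

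The third question is how the genes moved with time after doxycycline. Given as log2 change per 20 days, the exp slope passed for 2 of 41 members, against 4.95% of all genes (171 rising, 1.36%, and 451 falling, 3.59%). Kdm3a fell by 0.46 ± 0.11 (limma adjusted p = 0.0355), from 17.9 FPKM at day 0 through 15.5, 13.8 and 15.1 to 13.3 at day 20. Plod3 rose by 0.46 ± 0.12 (adjusted p = 0.0456). Tet2 had a slope of -0.60 ± 0.17 that did not pass (adjusted p = 0.0586), and with the replicate number as a block it was -0.70 and passed (0.0252). The Kdm3a call was lost with median-of-ratios rescaling (adjusted p = 0.0769) and with quantile normalization (0.0551), and the Plod3 call without a filter on low values (0.0519). Both calls were lost without any 1 of the exp day 16 replicates, without ctl replicate 1 and without day 0 or day 16 (adjusted p up to 0.365 for Kdm3a and 0.514 for Plod3). The Plod3 call was also lost without ctl replicate 2 or 3, day 5 or day 12. Without day 16 replicates 2 and 3, Tet2 passed (-0.70, adjusted p = 0.0451), Kdm3a (0.064) and Plod3 (0.071) did not, and the share over all genes was 6.48%.

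In ctl no member passed, and no gene of the 12559 did (0%). By unadjusted p under 0.05, 4 members had a ctl slope, and voom on recovered reads gave 5. Kdm3a in ctl went from 20.9 FPKM at day 0 through 20.8, 17.7 and 16.0 to 15.9 at day 20, a slope of -0.45 ± 0.11. The slopes of the lines differed for Kdm3a by 0.00 (95% interval -0.34 to 0.33), so its decline was not shown to differ between them.

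The difference of the slopes passed for none of the 41 members, against 0.207% of all genes (26). Unadjusted p was under 0.05 for 5 members in limma, Plod3 (0.49), Alkbh5 (0.37), P4ha3 (0.48), Egln1 (-0.35) and Alkbh3 (-0.73), and for 3 with voom. Egln1 had an exp slope of -0.39 ± 0.11 (adjusted p = 0.0548) and a ctl slope of -0.04 ± 0.11. The median slope difference was -0.04 over the members and -0.06 over all genes. With single libraries at most days, the intervals of the slope differences were wide, for example -1.98 to 0.71 for Plod2 and -1.05 to 0.98 for P4ha1.

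**Figure D5:**
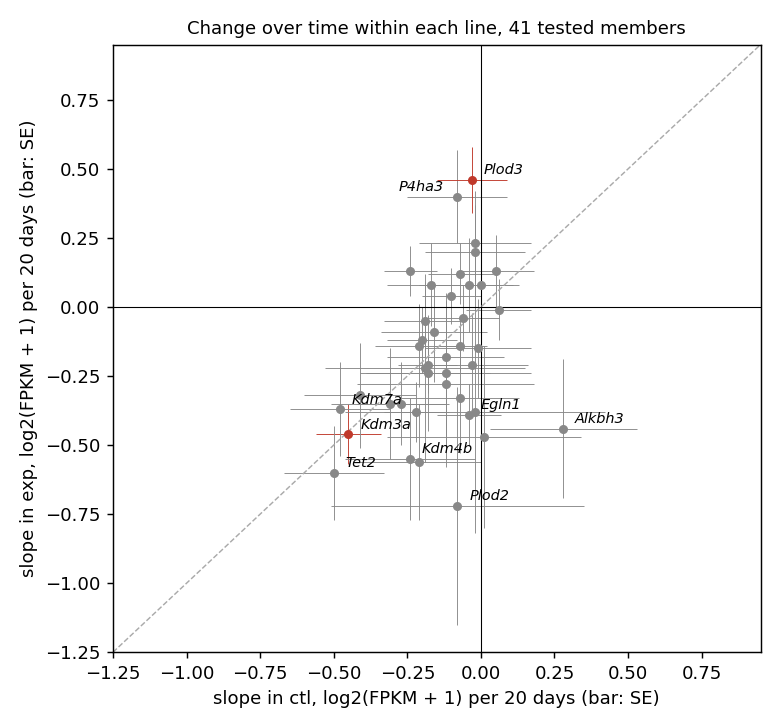
Change over 20 days on the log2(FPKM + 1) scale in ctl (horizontal) and exp (vertical) for the 41 tested members; points are limma estimates, bars are SE, red marks an adjusted p under 0.05 in exp, and the dashed line marks equal slopes. Kdm3a (-0.46 in exp and -0.45 in ctl) lies on the line, whereas Plod3 (0.46 and -0.03) and P4ha3 (0.40 and -0.08) lie above it.

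The 9 members known as HIF-induced genes had a median day 16 difference of -0.13 (all genes -0.01), and none passed in limma, with 2 at an unadjusted p under 0.05, while Kdm3a passed with voom. Their median average difference was 0.07, with Kdm3a lower and no other past the test, and without day 16 replicates 2 and 3 it was 0.15, with Egln1, Egln3, P4ha1 and Plod2 higher and Kdm3a lower. Of 15 HIF targets outside the family, 6 fell in exp over time, against the 3.59% of all genes above: the mitophagy gene Bnip3 by 1.75 per 20 days (adjusted p = 0.000304), Bnip3l by 0.76, the glycolytic genes Pgk1 by 0.63 and Aldoa by 0.69, the pyruvate dehydrogenase kinase gene Pdk1 by 1.46 and Ankrd37 by 1.49. None of the 15 rose in that fit or with voom. With the replicate number as a block 7 fell, Ldha added (-0.74, adjusted p = 0.0232), and Ndrg1 rose (0.85, adjusted p = 0.00586). Without day 16 replicates 2 and 3, Ndrg1 also rose (0.89, adjusted p = 0.00843) and 7 fell, against 6.48% of all genes in either direction. There Ldha (-0.70, adjusted p = 0.0462) and Ddit4 (-0.48, 0.0322) came in, and Bnip3l did not pass (0.0705). The slope of Bnip3 differed between the lines (-1.31 ± 0.21, adjusted p = 0.0373), a call lost without day 16 replicates 2 and 3 (0.0726), and Ndrg1 passed as well with the block (0.93, adjusted p = 0.0426). Bnip3 went from 50.9 FPKM at day 0 to 15.0 at day 20 in exp and from 28.1 to 19.9 in ctl. At day 16, Aldoa passed (-0.31, adjusted p = 0.0475), and with the block Bnip3l did too (-0.37, adjusted p = 0.0358). On average over days 5 of the 15 passed, against 35.9% of all genes. Vegfa (0.53), the carbonic anhydrase gene Car9 (1.35) and Pfkfb3 (0.31) were higher in exp. Bnip3l (-0.23, not past the test without day 16 replicates 2 and 3) and Ankrd37 (-0.49) were lower. Without day 16 replicates 2 and 3 the count was 6 of 15, against 36.7% of all genes. There Adm (-0.78, limma adjusted p = 0.00122) and Hk2 (-0.42, adjusted p = 0.0161) were lower in exp as well. Car9 also differed between the day 16 replicates: exp had 15.9 FPKM in replicate 1 and 2.74 and 2.64 in replicates 2 and 3, and ctl had 3.64, 2.17 and 2.06.

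Partners and substrates of the enzymes were measured too. Of 11 listed, 9 were tested and 4 differed on average, against 35.9% of all genes, with Vhl, which tags hydroxylated HIF for destruction, higher by 0.23 and the collagen chaperone gene Serpinh1 higher by 0.34, and with Hif1a (-0.22) and the mRNA methyltransferase gene Mettl3 (-0.16) lower; the count was 6 of 9 with the replicate block. None of the 9 passed at day 16 in limma or with voom, and 3 in limma and 2 with voom had an unadjusted p under 0.05. Of 17 further 2-oxoglutarate oxygenase genes, 12 were tested: Hr, a JmjC gene known from hair follicles, was higher in exp by 2.28 ± 0.30 (adjusted p = 0.000139), Phyhd1, a relative of Phyh, was higher by 0.37, and Tyw5 fell in exp over time by 0.64, a call lost without day 16 replicates 2 and 3 (adjusted p = 0.0531). Hr was at 19.1 FPKM in exp day 16 replicate 1 and at 3.47 and 3.77 in replicates 2 and 3, and at 1.07 to 1.47 in ctl. Of 18 genes for enzymes that make or use 2-oxoglutarate or succinate, Sdhc passed at day 16, and Sdhc (-0.34), Glud1 (-0.34) and Ogdh (-0.25) were lower on average.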

How the data were processed

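RNA-seq was measured in 16 libraries, 8 per line. The authors deposited 1 table of FPKM values per library. Bowtie2 2.2.3 and the mm9 genome are named per the submitters' processing notes, and the libraries were made from poly(A) mRNA with TruSeq v2, per the labels' protocols. How reads were counted, with which annotation and whether by strand, is not given in the sources used here. FPKM values stepped in whole reads for all 18966 genes with reads in at least 2 libraries (within 0.02 reads), which gave 18121520 to 42486438 reads in genes per library, and FPKM was relative to that total.

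Differences were tested on log2(FPKM + 1) with limma 3.58.1 (trend and robust empirical Bayes, statmod 1.5.0, R 4.3.3), two-sided, over genes with a mean of at least 1 FPKM, with Benjamini-Hochberg adjustment over all genes tested. Day 16 was fitted on its 6 libraries. The average difference (day as a factor plus line), the slope difference (adding line by day) and the slope of each line were fitted on all 16 with a shared spread. Most days had 1 library per line, so this spread includes departures from the fitted day pattern. At day 16 the labels call the replicates biological. Same-numbered replicates of the lines deviated together across genes (correlations 0.38, 0.27 and 0.33), which comes from the data and not from the labels; exp replicate 3 also correlated with ctl replicate 2 at 0.40. A fit with the number as a block was therefore run.

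The members, lists, sizes and tests were chosen with earlier results of these data known. Of the 42 members, 3 kinds are given by library or by lowest, median and highest value. These are those past a test, the most abundant of each role and the one with the largest day 16 difference of each role. The others are given by range or difference. Any other with values of single libraries, such as Egln1 and Kdm7a, was named with its values known. Alternatives changed the pseudocount (0.1 or 5), the filter (none or a mean of 5), the scaling (median of ratios or quantile), the empirical Bayes step, the replicate block and the libraries used, and voom was run on the recovered reads. The scripts were tested on simulated data.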

Additional observations from a re-analysis of the deposited data

Results flagged for a closer look

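At day 16 the difference between the lines pointed one way in replicate 1 and the other way in both other replicates for 6 members, at a size of at least 0.1 on the log2(FPKM + 1) scale, which was chosen with the values known. Whether the replicate sets differ was not tested, since replicate 1 is a single pair. For Plod2 exp minus ctl was 0.73 in replicate 1 and -0.56 as the mean of replicates 2 and 3. For Egln3 it was 0.57 and -0.55. For P4ha1 it was 0.64 and -0.19. Alkbh3 gave 0.44 and -0.13, and Alkbh2 gave 0.14 and -0.11. Kdm5b went the other way, with -0.42 in replicate 1 and 0.25 in replicates 2 and 3.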

How the results depend on the processing

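Of the 17 member results that passed a test, 299 recomputed values kept their side of the threshold, 61 kept the direction but no longer passed, and none reversed. The day 16 count of 2 members was 4 with voom on recovered reads (Kdm3a and Kdm7a added) and ranged from 1 to 5 when 1 replicate was left out. The count of 2 exp slopes was 1 without a filter, with median-of-ratios rescaling, with quantile normalization, without day 12 and without day 16 replicates 2 and 3. It was 0 without day 0 or day 16, 4 without day 5, and ranged from 0 to 1 when 1 replicate was left out; the cause was not tested. The day 0 count of 7 was 4 with a pseudocount of 5. Plod2 at day 16, at -0.13, reversed to 0.08 without exp replicate 2 or 3 and was -0.55 without exp replicate 1. With the replicate number as a block, 2 members passed at day 16, 3 in the exp slope (Tet2 added) and 14 in the average difference, and none in the other fits. Single libraries at most days limit the precision of all fits over time, and every member but P4htm and Alkbh2 had at least 100 reads in each library.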

Other observations

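The dioxygenases also need ascorbate and iron, and 9 genes for their supply were listed, of which 8 were tested. At day 16 none passed in limma or with voom (Tfrc did with the replicate number as a block, at -0.32 with adjusted p = 0.0324), and 1 had an unadjusted p under 0.05 with voom and 0 with limma. On average over days Tfrc, the transferrin receptor that brings iron into the cell, was lower in exp, with a difference of -0.67 ± 0.14 on the log2(FPKM + 1) scale (limma adjusted p = 0.00353). Its values were 30.2, 25.7, 11.9 and 12.2 FPKM in exp at days 0, 5, 9 and 12, against 49.2, 31.2, 30.5 and 34.2 for ctl. At day 16 the 3 exp libraries had 28.4, 37.8 and 35.1 FPKM and the 3 ctl libraries 35.4, 47.2 and 45.2. Tfrc was the only 1 of the 8 to pass on average over days, against 35.9% of all genes. With the replicate block Slc11a2 (-0.21, limma adjusted p = 0.0173) and Slc40a1 (-0.40, 0.0411) were lower in exp as well. Without day 16 replicates 2 and 3, 3 passed, against 36.7% of all genes, with Slc11a2 (-0.29, 0.00391) and Slc23a2 (-0.22, 0.0146) lower beside Tfrc. The ferritin genes Fth1 and Ftl1 and the iron chaperone genes Pcbp1 and Pcbp2 did not pass in any of the 5 fits.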
